A study of Mus musculus with 4 samples.

Results

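Genes of the urea cycle and of amino acid breakdown were followed in regenerating mouse liver after an siRNA against Orm1. The set was a list of 54 gene symbols, and a member was measured where at least 1 probe set carried that symbol and no other; the probe sets of a gene were averaged. By this rule 49 of the 54 genes were measured, by 60 probe sets, among 10923 genes in all. The only probe set for Ass1 was listed with a second symbol and was left out, and Gls2, Sds, Amt and Acmsd were not analysed here.

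The liver removes the nitrogen of amino acids as urea. Carbamoyl phosphate is made from ammonia in the mitochondria, joined to ornithine, and carried through citrulline and argininosuccinate to arginine, from which arginase releases urea. The carbon skeletons are broken down by separate routes for tyrosine, tryptophan, histidine, glycine, the sulfur amino acids, the branched-chain amino acids and lysine, many of them inside mitochondria. Hepatocytes hold most of these enzymes, and several of their genes are controlled by glucagon and glucocorticoids.

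All mice were male C57BL6/J aged 6 to 13 weeks. They were injected once with siRNA carried by Invivofectamine 3.0, lost 40% of the liver 3 days later, and gave liver RNA 48 hours after that partial hepatectomy. The siControl group, with a control siRNA, had 2 arrays, and the siOrm group, with the siRNA against Orm1, had 2; no allele or transgene is named. The titles of the siOrm arrays could also be read as naming Orm1 and Orm2, but the other labels put both in 1 group. The labels leave unsaid how many mice went into an array, and the p-values thus rest on a spread between arrays that may be technical only.

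Each value is a log2 signal relative to the median of the 4 arrays for that probe set, with base 2 assumed because the deposited table does not state it; with natural logarithms each difference would be 1.44 times larger. Expression levels, and therefore how strongly the liver's defining markers were expressed, cannot be seen in such a table. Differences are siOrm minus siControl with the standard error (SE) of limma, and no exact permutation test of 2 against 2 arrays can give a two-sided p below 0.333. In whole liver RNA, fewer cells of a type and less RNA per cell cannot be told apart. The targeted gene Orm1 differed by -0.23 (SE 0.15, limma adjusted p = 0.994), and its paralogs Orm2 and Orm3 by -1.08 (SE 0.34) and -0.91 (SE 0.34) at the same adjusted p, so the targeted gene is a weak check of the labels.

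As a set the amino acid genes stood slightly higher in the siOrm livers, by amounts too small for any 1 gene to pass the test. Of the 49 measured members, 46 had a positive difference, where 52.2% of all genes did, and 3 (Csad, Arg1 and Bhmt) a negative one, where 47.8% did. The median difference was 0.23, or 1.17-fold, against a median of 0.01 over all 10923 genes. The siOrm arrays were both above the siControl pair for 26 members, or 53.1%, where 17.0% of all genes were, and both below it for 0 members, where 15.3% of all genes were. The highest differences belonged to Prodh, Asl, Pcca and Hibch, and the lowest to Csad. None of this was a call of a changed gene: at an adjusted p under 0.05 (limma, Benjamini-Hochberg over all genes) 0 members and 0.0% of all genes passed. At an unadjusted p under 0.05 (limma) 4 members were higher, Asl, Hibch, Acadsb and Dmgdh, where 2.18% of all genes were higher. At that level 0 members were lower, where 2.58% of all genes were. With probe sets of possibly shared sequence left out, Acadsb was not measured and only Asl and Hibch stayed under 0.05.

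**Figure D1:**
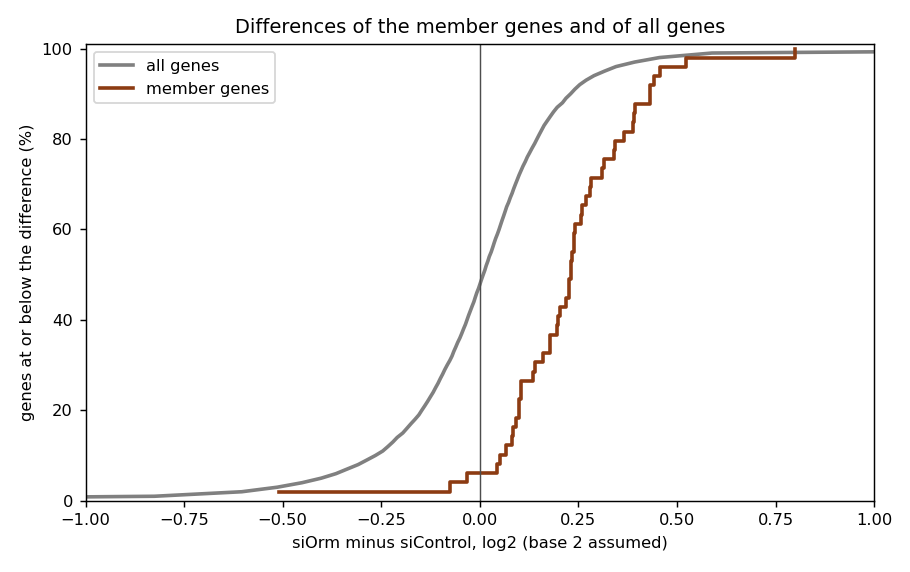
The share of genes (vertical axis, percent) at or below each difference, siOrm minus siControl (horizontal axis, log2, base 2 assumed), for the 49 member genes (brown steps) and for all 10923 genes (grey line); the axis ends at -1 and 1. The member curve lies to the right of the grey curve over most of its length, with a median of 0.23 against 0.01.

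The size of that shift rested on siOrm replicate 1. It was the highest of the 4 arrays for 43 of 49 members, where it was the highest for 26.3% of all genes. It lay above siOrm replicate 2 for 45 members, where it did for 46.7% of all genes. The median gap over the members was 0.22, about as wide as the difference between the groups. The member medians were -0.09 and -0.10 in siControl replicates 1 and 2, 0.21 in siOrm replicate 1 and 0.01 in siOrm replicate 2. Against siOrm replicate 2 alone the median difference was 0.09, with 42 members positive, where 52.2% of all genes were. Then 26 members lay above both siControl arrays, where 29.2% of all genes did. With siOrm replicate 1 alone the median difference was 0.35, with 48 members positive, where 50.1% of all genes were. Leaving out siControl replicate 1 or 2 gave 0.28 or 0.18.

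**Figure D2:**
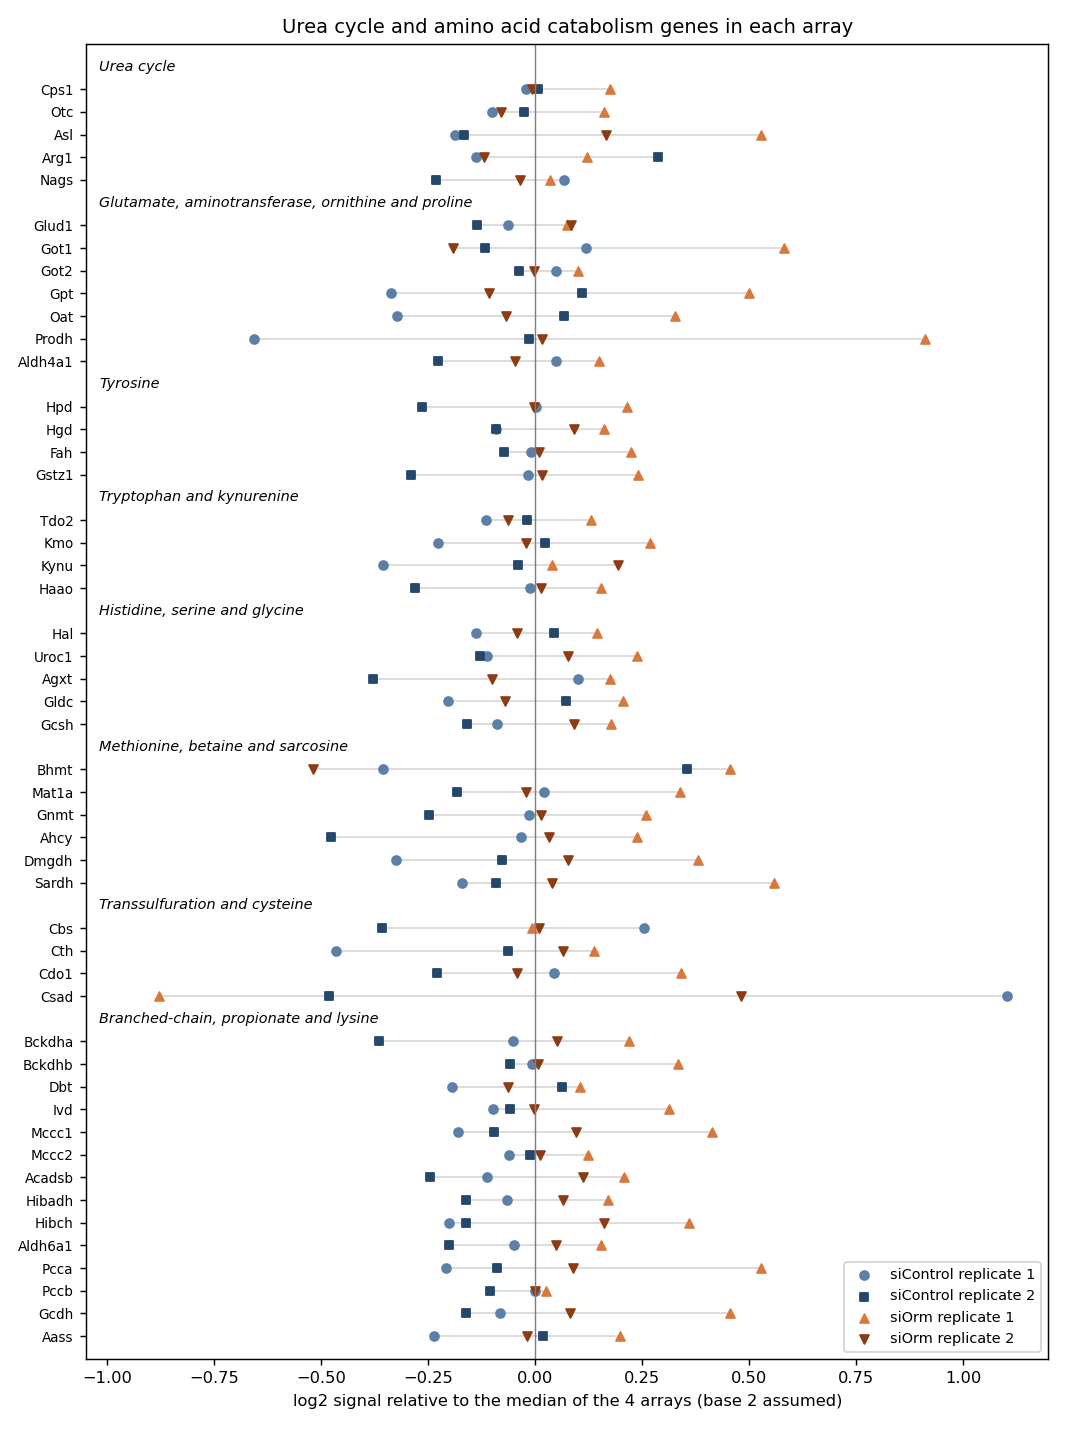
Log2 signal relative to the median of the 4 arrays (horizontal axis, base 2 assumed) for each of the 49 member genes (rows, by pathway), with 1 point per array: siControl in blue, siOrm in orange and brown. The upward triangles of siOrm replicate 1 are the rightmost points in 43 rows, and those of siOrm replicate 2 lie between them and both siControl points in 24 of the 49.

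The urea cycle itself was nearly level between the groups except for Asl. Of its 5 measured genes 4 had positive differences, 1 was separated upwards, 0 passed the test, and the median difference was 0.09. Over all genes 52.2% were positive and 17.0% separated upwards, the shares to set beside each pathway count here and below. Asl encodes argininosuccinate lyase, which splits argininosuccinate into arginine and fumarate. Its siControl values were -0.19 and -0.17 and its siOrm values 0.53 and 0.17. The siControl arrays were alike and the siOrm arrays both higher. Asl differed by 0.52 (SE 0.16, 95% interval 0.11 to 0.93, limma adjusted p = 0.994), a fold of 1.44.

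Cps1, the carbamoyl phosphate synthetase that starts the cycle, stood at -0.02 and 0.01 in siControl and at 0.17 and -0.01 in siOrm. Only siOrm replicate 1 stood apart, and the difference was 0.09 (SE 0.14). Nags makes N-acetylglutamate, the activator that carbamoyl phosphate synthetase needs. Nags stood at 0.07 and -0.23 in siControl and at 0.03 and -0.03 in siOrm, between the siControl arrays. Otc, the ornithine transcarbamylase of the mitochondria, stood at -0.10 and -0.03 against 0.16 and -0.08, a difference of 0.10 (SE 0.15). Its 3 probe sets gave differences from 0.0047 to 0.23. Arg1, the liver arginase, was the only urea cycle gene with a negative difference. Arg1 stood at -0.14 and 0.29 in siControl and at 0.12 and -0.12 in siOrm, so the siOrm arrays lay inside the siControl range, with a difference of -0.08 (SE 0.19). Without siOrm replicate 1 the median of the 5 genes was -0.00062.

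Enzymes that handle glutamate, ornithine and proline stood higher in siOrm replicate 1, some of them by a wide margin. All 7 measured genes had positive differences, 2 were separated upwards and 0 passed the test, with a median of 0.20. Prodh, the proline dehydrogenase that opens proline breakdown, had the highest difference of any member. It stood at -0.66 and -0.02 in siControl and at 0.91 and 0.02 in siOrm. The groups did not overlap, but siControl replicate 2 and siOrm replicate 2 were nearly equal, and siControl replicate 1 and siOrm replicate 1 made the gap. Prodh differed by 0.80 (SE 0.35, interval -0.08 to 1.68, limma adjusted p = 0.994), with a range of 0.35 to 1.25 over the fits that left out an array.

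Glud1, the glutamate dehydrogenase that releases ammonia in mitochondria, was more even. Glud1 stood at -0.06 and -0.14 in siControl and at 0.07 and 0.08 in siOrm, with a difference of 0.18 (SE 0.13), and its 2 probe sets differed by 0.16 and 0.19. Oat, the ornithine aminotransferase, stood at -0.32 and 0.07 against 0.33 and -0.07, with overlapping groups and a difference of 0.26 (SE 0.21). The aminotransferases Gpt, Got1 and Got2, which move amino groups between alanine or aspartate and glutamate, differed by 0.31 (SE 0.26), 0.20 (SE 0.27) and 0.04 (SE 0.13). Got1 stood at -0.19 without siOrm replicate 1. Aldh4a1, the next enzyme of proline breakdown after Prodh, differed by 0.14 (SE 0.16).

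Among the tyrosine members the differences were small in size and even in direction, with 4 of 4 genes positive, 3 separated upwards, 0 past the test and a median of 0.23. Tat, the tyrosine aminotransferase, was listed as a partner and not as a member, and differed by -0.44 (SE 0.26). Hgd, the homogentisate dioxygenase, stood at -0.09 and -0.09 in siControl and at 0.16 and 0.09 in siOrm. The arrays of each group lay close together, and the difference was 0.22 (SE 0.13). Gstz1, the maleylacetoacetate isomerase of the next step, stood at -0.02 and -0.29 against 0.24 and 0.02, and Gstz1 differed by 0.28 (SE 0.16). Hpd, the dioxygenase that makes homogentisate, had siControl values of 0.0025 and -0.26 against 0.22 and -0.0025, a difference of 0.24 (SE 0.16). Its siOrm replicate 2 value lay just below that of siControl replicate 1, so the groups overlapped. Fah, the fumarylacetoacetate hydrolase at the end of the route, differed by 0.16 (SE 0.14).

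Along the tryptophan and kynurenine route 4 of 4 measured genes were positive, 2 were separated upwards, 0 passed and the median was 0.23. Kynu, the kynureninase, stood at -0.36 and -0.04 in siControl and at 0.04 and 0.19 in siOrm, and differed by 0.31 (SE 0.16). Kynu and Glud1 were the 2 members in which siOrm replicate 2 was the highest array, where it was for 18.3% of all genes. Haao, which makes the precursor of quinolinate, stood at -0.01 and -0.28 against 0.15 and 0.01, a difference of 0.23 (SE 0.15). Kmo, the kynurenine hydroxylase, stood at -0.23 and 0.02 against 0.27 and -0.02 and overlapped between the groups. Tdo2, the dioxygenase that opens the route, differed by 0.10 (SE 0.14), and both of its probe sets gave 0.10.

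For histidine, serine and glycine 5 of 5 measured genes were positive, 2 were separated upwards and 0 passed, with a median of 0.18. Uroc1, the urocanase of histidine breakdown, stood at -0.11 and -0.13 in siControl and at 0.24 and 0.08 in siOrm. The siControl arrays were nearly equal and both siOrm arrays lay above them, a difference of 0.28 (SE 0.13). Gcsh, the carrier protein of the glycine cleavage system, stood at -0.09 and -0.16 against 0.18 and 0.09, a difference of 0.26 (SE 0.13). Agxt, the peroxisomal aminotransferase that removes glyoxylate, stood at 0.10 and -0.38 against 0.18 and -0.10, with siControl replicate 2 alone far below the rest. Hal, the histidine ammonia lyase ahead of Uroc1, differed by 0.10 (SE 0.15), and Gldc, the decarboxylase of glycine cleavage, by 0.13 (SE 0.17).

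The methyl group cycle had the highest median of the 8 pathway groups, 0.33, with 5 of 6 genes positive, 4 separated upwards and 0 past the test. Dmgdh and Sardh encode the mitochondrial dehydrogenases that strip methyl groups from dimethylglycine and sarcosine on the way from choline to glycine. Dmgdh stood at -0.33 and -0.08 in siControl and at 0.38 and 0.08 in siOrm. Sardh stood at -0.17 and -0.09 in siControl and at 0.56 and 0.04 in siOrm. In both genes the groups did not overlap and siOrm replicate 1 was highest. Dmgdh differed by 0.43 (SE 0.17, limma adjusted p = 0.994) and Sardh by 0.43 (SE 0.20). The 2 probe sets of Sardh gave 0.42 and 0.44, but in the probe set that gave 0.44 the groups overlapped. There siControl replicate 2 stood at 0.019 and siOrm replicate 2 at -0.019. Without siOrm replicate 1 the differences of Dmgdh and Sardh became 0.28 and 0.17.

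Ahcy, which clears the S-adenosylhomocysteine left by methylation, stood at -0.03 and -0.48 in siControl and at 0.24 and 0.03 in siOrm. The low siControl replicate 2 made most of the difference of 0.39 (SE 0.19), which was 0.17 without it. Gnmt, the glycine methyltransferase that consumes S-adenosylmethionine, differed by 0.27 (SE 0.16), and Mat1a, which makes it, by 0.24 (SE 0.18). Bhmt, which remethylates homocysteine with betaine, showed no pattern by group, at -0.36 and 0.36 against 0.45 and -0.52 (difference -0.03, SE 0.38).

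Transsulfuration and cysteine breakdown was mixed, with 3 of 4 genes positive, 1 separated upwards, 0 past the test and a median of 0.15. Cth, the cystathionine lyase, stood at -0.47 and -0.06 in siControl and at 0.14 and 0.06 in siOrm, and differed by 0.37 (SE 0.17). Cdo1, the cysteine dioxygenase, stood at 0.04 and -0.23 against 0.34 and -0.04, a difference of 0.24 (SE 0.19) with overlapping groups. Csad, the decarboxylase that leads to taurine, had the widest range of any member. Csad stood at 1.10 and -0.48 in siControl and at -0.88 and 0.48 in siOrm, so each group held a high and a low array, and its difference of -0.51 carried an SE of 0.64. Cbs, the cystathionine synthase ahead of Cth, differed by 0.05 (SE 0.22). Without siControl replicate 2 the median of the 4 genes turned to -0.07, with 2 positive and 2 negative.

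Genes for the breakdown of branched-chain amino acids, propionate and lysine had a positive difference in each of the 14 members measured. All 14 had siOrm replicate 1 as the highest array, 11 were separated upwards and 0 passed the test. The median was 0.23, and it was 0.18 without siOrm replicate 1, with all 14 still positive, and 0.38 without siOrm replicate 2. Without siControl replicate 1, 13 were positive and Dbt, the core of the branched-chain complex, was at -0.043. Hibch, the hydrolase of 3-hydroxyisobutyryl-CoA in valine breakdown, stood at -0.20 and -0.16 in siControl and at 0.36 and 0.16 in siOrm. Each group lay together and apart from the other, with a difference of 0.44 (SE 0.14, interval 0.10 to 0.79, limma adjusted p = 0.994), and its 2 probe sets gave 0.35 and 0.53. Acadsb, the short branched-chain acyl-CoA dehydrogenase of isoleucine breakdown, stood at -0.11 and -0.25 against 0.21 and 0.11, a difference of 0.34 (SE 0.13). Mccc1, a subunit of the carboxylase of leucine breakdown, stood at -0.18 and -0.10 against 0.41 and 0.10, a difference of 0.39 (SE 0.16).

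Subunits of 1 enzyme did not all differ by the same amount, though their intervals overlapped. Mccc2, the partner of Mccc1, differed by 0.11 (interval -0.22 to 0.43). In propionyl-CoA carboxylase Pcca differed by 0.46 (interval -0.0023 to 0.91) and Pccb by 0.07 (interval -0.25 to 0.39). In the branched-chain ketoacid dehydrogenase complex Bckdha differed by 0.34, Bckdhb by 0.20 and Dbt by 0.09. The difference between subunits was not tested. Of the other valine enzymes Hibadh and Aldh6a1 both differed by 0.23, as did Ivd of leucine breakdown. In lysine breakdown Gcdh differed by 0.39 (SE 0.17) and Aass by 0.20 (SE 0.16).

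**Figure D3:**
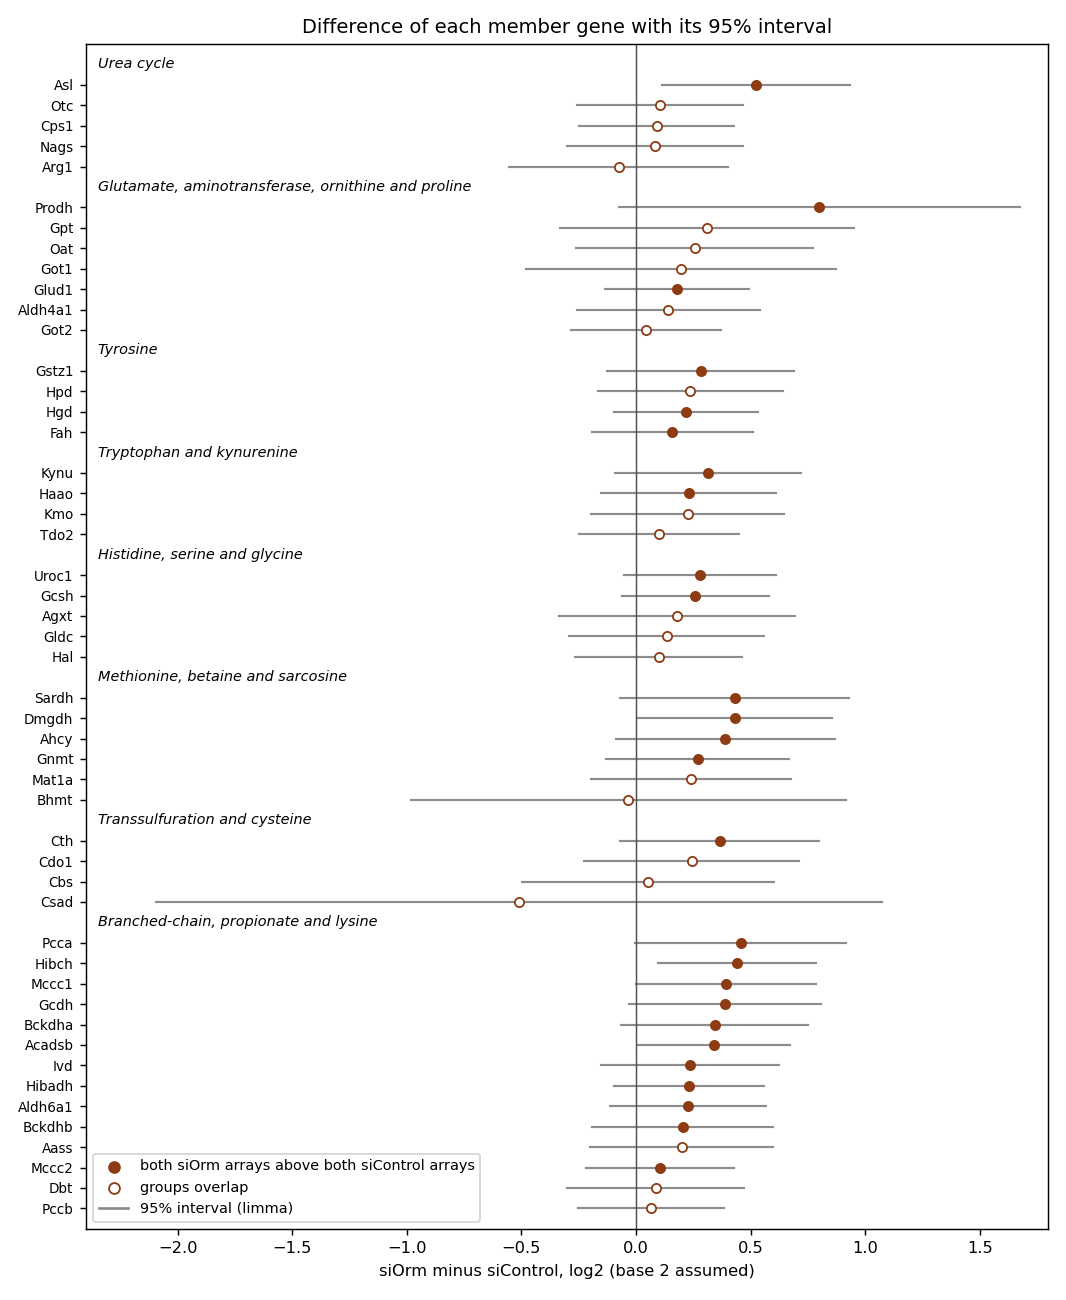
Difference of each of the 49 member genes, siOrm minus siControl (horizontal axis, log2, base 2 assumed), with the 95% interval of limma, by pathway and sorted within it. Filled points mark the 26 genes whose siOrm arrays are both above the siControl pair; all intervals include 0 except those of Asl, Hibch, Acadsb and Dmgdh.

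Promoter sequence is printed for members with an unadjusted p under 0.05 (limma), which is not a ranking by how far their arrays separated. RefSeq's table for GRCm38.p6 held windows for 40 of the 49 members, 45 windows in all, and for 3 of the 4 members with an unadjusted p under 0.05, Hibch, Acadsb and Dmgdh. The 250 bases before each start were searched on both strands for motifs of factors that act on liver metabolic genes. These were the C/EBP type TTGCNNAA, the cyclic AMP response element TGACGTCA, the mixed form TGACGCAA, the HNF4 type CAAAGTCCA and the glucocorticoid response element. The C/EBP type was in 5 of the 45 member windows, those of Aass, Acadsb, Gcdh, Hal and Hgd, and in 9.56% of all 32851 windows of that length. The other 4 motifs were in 0 member windows and in 1.55%, 0.438%, 0.384% and 0.00913% of all windows, and no match overlapped another. The 3 windows are given 5′ to 3′ on the gene's strand, with the motif match in capitals. They lie at chr1:52844788-52845037 for Hibch, chr7:131410351-131410600 for Acadsb and chr13:93674186-93674435 for Dmgdh, each on the plus strand.
Hibch: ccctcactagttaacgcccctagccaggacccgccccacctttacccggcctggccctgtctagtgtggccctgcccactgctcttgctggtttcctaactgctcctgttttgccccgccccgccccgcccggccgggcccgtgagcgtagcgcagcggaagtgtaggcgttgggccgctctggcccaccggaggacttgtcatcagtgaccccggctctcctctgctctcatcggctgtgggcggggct
Acadsb: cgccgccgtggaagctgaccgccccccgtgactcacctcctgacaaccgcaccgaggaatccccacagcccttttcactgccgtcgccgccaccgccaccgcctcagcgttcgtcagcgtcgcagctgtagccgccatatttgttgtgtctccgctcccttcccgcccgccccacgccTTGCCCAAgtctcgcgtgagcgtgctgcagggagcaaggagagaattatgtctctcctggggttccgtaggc
Dmgdh: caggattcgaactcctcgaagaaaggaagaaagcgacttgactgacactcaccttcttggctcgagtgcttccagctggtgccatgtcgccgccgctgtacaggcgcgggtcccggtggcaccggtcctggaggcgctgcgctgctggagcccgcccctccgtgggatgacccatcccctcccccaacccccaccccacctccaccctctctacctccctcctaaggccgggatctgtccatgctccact
All 3 were rich in G and C, at 68%, 65.6% and 64.8%, where the median of the 45 member windows was 56.4% and that of all windows 52.4%. The match in Acadsb ran from position -72 to -65 relative to the start. The Hibch and Dmgdh windows held none of the 5 motifs in these bases.

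Neighbouring enzymes and transporters of the same pathways mostly leaned the same way as the members, with some clear exceptions. Of 51 such genes listed, 41 were measured, with a median of 0.18 and 0 past the test. Positive differences numbered 32, where 52.2% of all genes had one, and negative ones 9, where 47.8% did. Separation was upwards for 18, where 17.0% of all genes were so placed, and downwards for 5, where 15.3% were. Glul, the glutamine synthetase that takes up ammonia around the central veins, stood at -0.13 and -0.33 in siControl and at 0.30 and 0.13 in siOrm, a difference of 0.45 (SE 0.15). Slc1a2, a glutamate transporter, differed by 0.57 (SE 0.20), Bcat2, a branched-chain aminotransferase, by 0.38 (SE 0.15) and Suox, the sulfite oxidase at the end of cysteine breakdown, by 0.36 (SE 0.15). For each of these the siOrm arrays lay above the siControl arrays, at a limma adjusted p = 0.994. Glul, Slc1a2 and Bcat2 were measured only by probe sets of possibly shared sequence. Without siControl replicate 2 the differences were 0.34 for Glul, 0.42 for Slc1a2, 0.25 for Bcat2 and 0.42 for Suox.

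Of the 41 partners, 9 had negative differences. Asns, the asparagine synthetase, stood at 0.21 and 0.27 in siControl and at -1.17 and -0.21 in siOrm. Both siOrm arrays were low, siOrm replicate 1 far more so, and the difference of -0.94 (SE 0.31, limma adjusted p = 0.994) was -0.46 without that array. The serine synthesis genes Psat1, Psph and Phgdh differed by -0.38 (SE 0.22), -0.37 (SE 0.21) and -0.17 (SE 0.16). Aldh18a1, which starts proline synthesis and so runs against Prodh, differed by -0.33 (SE 0.17). These 5 make amino acids, but they were picked after their values were seen and were given no test as a group. In Phgdh the groups overlapped. Positive differences were seen for Glul, which makes glutamine (0.45). The same held for Shmt1 (0.36), Gpt2 (0.33) and Shmt2 (0.26), which can also form amino acids. Tat, the tyrosine aminotransferase, differed by -0.44 (SE 0.26). It, Asns, Psat1, Psph and Aldh18a1 were the 5 partners separated downwards, where 15.3% of all genes were.

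Transcription factors and receptors known to act on these genes did not lean one way. Of 13 measured regulators 7 were positive, where 52.2% of all genes were, and 6 negative, with 0 past the test and a median of 0.06. Separation was upwards for 4, where 17.0% of all genes were so placed, and downwards for 1, where 15.3% were. Klf15, a factor of the fasted liver that activates amino acid breakdown, stood at -0.09 and -0.34 in siControl and at 0.09 and 0.21 in siOrm, a difference of 0.36 (SE 0.15). Foxo1 differed by 0.26 (SE 0.14), the glucagon receptor Gcgr by 0.25 (SE 0.14) and the coactivator Ppargc1a by 0.21 (SE 0.15). Cebpb, a C/EBP factor of the acute phase and of regeneration, stood at 0.34 and 0.05 against -0.27 and -0.05, a difference of -0.36 (SE 0.17). The lowest array was siControl replicate 2 for 9 of the 13 regulators, where it was for 38.9% of all genes. Without it Klf15 differed by 0.23, Foxo1 by 0.18, Gcgr by 0.13, Ppargc1a by 0.12 and Cebpb by -0.50.

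The arrays also differed in other cell programmes, whose part in the member differences was not tested. Proliferation genes ran opposite to the members, with 15 of 15 measured genes negative, where 47.8% of all genes were. Of these, 14 were separated downwards, where 15.3% of all genes were. Their list medians were 0.20 and 0.92 in siControl against -0.55 and -0.23 in siOrm. The array with the lowest proliferation median, siOrm replicate 1, was the one with the highest member median. The 11 measured macrophage markers had medians of -0.22 and 0.62 in siControl and 0.02 and 0.01 in siOrm, so siControl replicate 2 stood apart, and it was the highest array for 10 of the 11. The member medians of the siControl arrays were nearly equal, at -0.09 and -0.10. Of 8 endothelial and 8 stellate cell markers, siControl replicate 2 was highest for 5 and 6 respectively, where it was for 28.1% of all genes. General hepatocyte markers, 8 of 10 measured, among them Alb, Ttr and Apoa1, were level, with medians of -0.02 and -0.03 in siControl and 0.02 and 0.01 in siOrm. Their differences were 4 positive and 4 negative. Of them 3 were separated upwards and 1, Hpx, downwards, where 17.0% and 15.3% of all genes were. Medians of the difference were -0.07 for neutrophil, 0.04 for lymphocyte, 0.21 for cholangiocyte and 0.49 for erythroid markers, the last from 3 genes. The neutrophil markers were uneven. Of 8 measured, 3 were separated downwards, where 15.3% of all genes were, and 1 upwards, where 17.0% were. The 3 were S100a8 (-1.83), S100a9 (-1.15) and Cxcr2 (-0.32). In siControl replicate 2 S100a8 and S100a9 stood at 2.75 and 1.95.

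**Figure D4:**
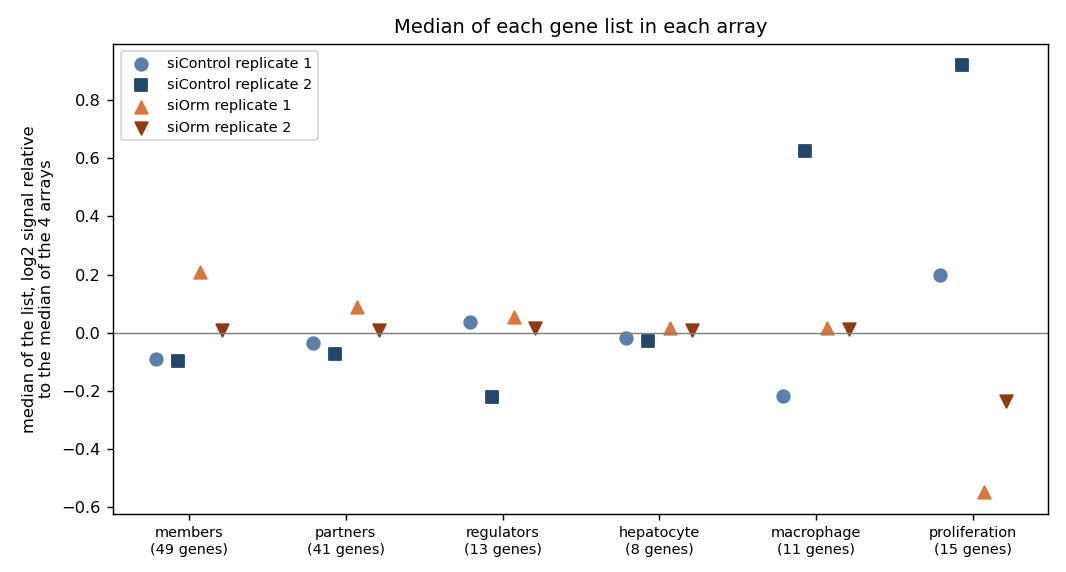
Median over each gene list of the log2 signal relative to the median of the 4 arrays (vertical axis, base 2 assumed), with 1 point per array, for the members, their pathway partners, the regulators, and hepatocyte, macrophage and proliferation markers. Members stand at 0.21 in siOrm replicate 1, where proliferation genes stand at -0.55, and hepatocyte markers stay within 0.03 of 0 in all arrays.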

How the data were processed

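Per the series text, RNA was measured on the Affymetrix Mouse Genome 430A 2.0 array, while the labels' protocols name another maker's labelling kit and cultured cells. The values are log2 signals (base not stated) of 18852 probe sets on 4 arrays, as deposited, centred by the authors to a row median within 4.8e-07 of 0. For software, array normalization and filters, the sources used here give nothing. Centring hides signal level, so no dim probe set could be removed. The platform annotation gave 17209 probe sets with 1 symbol, 564 with several, 1044 with none and 35 controls.

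Gene values, means of probe sets, were tested two-sided with limma 3.58.1 (R 4.3.3, lmFit and eBayes, constant prior, 3.60 prior and 2 residual degrees of freedom), with Benjamini-Hochberg adjustment over 10923 genes. In 10 simulations 96.3% of 200 genes changed by 2 log2 units were recovered, and 0% of those changed by 1. The simulated noise was independent between genes, with no shift shared by the genes of an array, so these shares need not hold for the real arrays. In each pathway the 3 members with the smallest p, and all urea cycle members, are given array by array. Of partners and of regulators, the 5 with the smallest p were named by rule. The other partners named, Tat and genes that make amino acids, were named outside that rule with their values known. Some unnamed partners had a smaller p. Members and lists were chosen with earlier results of these data known. The standard deviation over genes between arrays was 0.249 for the siOrm pair and 0.384 for the siControl pair, against 0.233 between siControl replicate 1 and siOrm replicate 2, so arrays were not closest within groups and neither pair was a duplicate. Replicate numbers were not taken to pair arrays, since no label ties them and only 2 pairs exist. Alternatives covered normalization, probe sets, arrays left out, a replicate block and a variance prior that follows the mean value.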

Additional observations from a re-analysis of the deposited data

How the results depend on the processing

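No member passed the adjusted test under any alternative run (limma). Over all genes 11 passed with a variance prior that follows the mean value, and between 0 and 229 when 1 array was left out; the 229 came without siControl replicate 1, where siControl replicate 2 alone, assumed to vary like the others, stands for its group. The member median lay between 0.0897 and 0.346 with 1 array left out. It was 0.23 after quantile normalization and also with probe sets of possibly shared sequence dropped, which left 42 members. Acadsb was not among these 42, since its only probe set was of that kind. Members with every siOrm array above every siControl array numbered 35 and 37 without siControl replicate 1 or 2, where 44.6% and 31.6% of all genes did so. They numbered 26 and 45 without siOrm replicate 1 or 2, where 29.2% and 32.4% of all genes did so. This count was added after the data were seen, and 3 arrays separate more easily than 4. Of the 49 members 37 kept their sign whichever array was left out. The other 12 ran from -0.00062 to 0.18 for Cps1, -0.017 to 0.23 for Otc, -0.29 to 0.14 for Arg1, -0.068 to 0.23 for Nags, -0.19 to 0.58 for Got1, -0.0090 to 0.10 for Got2, -0.062 to 0.42 for Agxt, -0.0040 to 0.27 for Gldc, -0.52 to 0.45 for Bhmt, -0.25 to 0.36 for Cbs, -1.30 to 0.28 for Csad and -0.043 to 0.21 for Dbt. Got2 also turned to -0.012 with those probe sets dropped, and Cbs to -0.0086 after quantile normalization; the cause was not tested. With the replicate number as a block 0 genes and 0 members passed, 5 members and 6.52% of all genes had an unadjusted p under 0.05, and the median stayed at 0.23; same-numbered arrays deviated together only weakly (r = 0.13 over genes).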

Other observations

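In 33 of 49 members, and in 79.7% of all genes, the arrays of 1 group differed by more than the group means did. For Csad, siOrm replicate 1 minus siOrm replicate 2 was -1.36 and siControl replicate 2 minus siControl replicate 1 was -1.58. Bhmt stood 0.97 higher in siOrm replicate 1 than in siOrm replicate 2, and 0.71 higher in siControl replicate 2 than in siControl replicate 1. Prodh and Got1 stood 0.90 and 0.77 higher in siOrm replicate 1 than in siOrm replicate 2. Got1, the cytosolic aspartate aminotransferase, spread this way while its mitochondrial counterpart Got2 spread by 0.10 between the siOrm arrays. The Got2 value averages 2 probe sets, 1 at 0.21 and -0.02 in siOrm replicates 1 and 2 and the other at -0.01 and 0.01. Gene values that rest on 1 probe set, as those of Csad, Bhmt, Prodh and Got1 do, have no second probe set to set beside them. Of the 10 members with several probe sets, 9 had differences of 1 sign in all of them, and Got2 had 1 of each. Sardh and Ivd, separated as gene values, each also had a probe set in which the groups overlapped.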
